A study of Mus musculus with 42 samples.

Results

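Oxytocin and vasopressin are neuropeptide hormones made by large neurons of the hypothalamus. The RNA of 4 genes is described here: the precursor genes Oxt and Avp, and the brain receptor genes Oxtr and Avpr1a. They were chosen by symbol, as 4 of the 37907 gene IDs in the table, and all 4 passed the filter on low values that 33579 genes passed. For Oxt and Avp passing says nothing of their level. A count added to every gene lists them near 2.04 and 1.90 RPKM with no read, above the 1 RPKM of the filter. The samples were hypothalamic nuclei cut by laser-capture microdissection from wild-type adult male C57/BL6 mice, which had food ad libitum or were fasted for 24 hours, with no transgene or drug in any group. Dissected were the arcuate nucleus (ARC), the ventromedial (VMH) and dorsomedial (DMH) hypothalamus and the paraventricular nucleus (PVN), giving 5 fed and 5 fasted ARC libraries, 6 and 6 of the VMH, 5 and 4 of the DMH, and 6 and 5 of the PVN. The nuclei were cut from shared brains, and the labels do not say which libraries came from one mouse, so tests between nuclei treat libraries of one mouse as independent. Each library is a bulk sample, so fewer cells of a type and less RNA per cell cannot be told apart.

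Oxytocin and vasopressin are each cut from a precursor that also holds a neurophysin, the carrier protein that travels with the hormone in the secretory granule. Magnocellular neurons of the PVN and supraoptic nucleus send them to the posterior pituitary, where oxytocin serves birth and lactation and vasopressin water balance, while smaller PVN neurons project within the brain and brainstem, where oxytocin is known to restrain feeding. The receptors Oxtr and Avpr1a couple to Gq and phospholipase C. Avpr1b acts mainly in the pituitary and Avpr2 mainly in the kidney. The question put to these libraries was how RNA levels in each nucleus respond to food deprivation.

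Both precursor genes lie on mouse chromosome 2, in tail-to-tail orientation 3565 bases apart. On build GRCm38, Oxt (ENSMUSG00000027301) spans chr2:130576173-130577054 on the plus strand and Avp (ENSMUSG00000037727) spans chr2:130580620-130582554 on the minus strand. Oxtr (ENSMUSG00000049112) lies at chr6:112473683-112489943 on the minus strand, and Avpr1a (ENSMUSG00000020123) at chr10:122448499-122453452 on the plus strand. No exon of the 4 genes overlaps an exon of another gene. The hormones have 9 residues each. Their codons are shown because they carry all that separates the mature peptides. Capitals mark the codons that change the residue, number 3 and number 8 from the amino end, and of the 9 codons 1 more differs without changing its residue.
Oxt: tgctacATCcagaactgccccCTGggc
Avp: tgctacTTCcagaactgcccaAGAggc

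The second exons, which code for the conserved core of the neurophysins, are shown because they decide how well reads of 50 bases can tell the genes apart. Each has 202 bases, at chr2:130576591-130576792 for Oxt and chr2:130581056-130581257 for Avp. Capitals mark the 9 bases at which they differ.
Oxt: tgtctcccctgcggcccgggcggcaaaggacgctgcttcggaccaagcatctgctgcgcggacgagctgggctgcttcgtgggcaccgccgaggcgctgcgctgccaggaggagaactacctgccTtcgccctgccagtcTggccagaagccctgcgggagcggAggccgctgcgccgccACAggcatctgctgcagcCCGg
Avp: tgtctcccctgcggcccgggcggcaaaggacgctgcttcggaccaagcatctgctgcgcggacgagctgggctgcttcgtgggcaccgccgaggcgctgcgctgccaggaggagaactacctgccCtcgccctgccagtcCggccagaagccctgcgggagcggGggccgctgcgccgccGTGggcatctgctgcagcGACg
The exons are 95.5% identical, with no difference before base 126. Together with the last 2 bases of the first exon, the transcripts share an unbroken run of 127 bases. A read that falls wholly inside it fits both genes. Of the 50-base stretches of Oxt, 16% recur in Avp, and of those of Avp, 14.8% recur in Oxt, while none of Oxtr or Avpr1a recur in another gene. How such reads were assigned is not given in the sources used here. The remaining stretches of each precursor are its own.

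The 250 bases before each start site (RefSeq, build GRCm38.p6) are shown for the neighbouring precursor genes because both had their highest RNA levels in the PVN. Capitals mark matches on either strand to TGACC, a half-site of nuclear receptors, to CACGTG, the E-box bound by clock factors, and to ATAAA, part of a TATA box. No matches overlap. The first sequence is chr2:130575919-130576168 on the plus strand and the second chr2:130582589-130582838 on the minus strand.
Oxt: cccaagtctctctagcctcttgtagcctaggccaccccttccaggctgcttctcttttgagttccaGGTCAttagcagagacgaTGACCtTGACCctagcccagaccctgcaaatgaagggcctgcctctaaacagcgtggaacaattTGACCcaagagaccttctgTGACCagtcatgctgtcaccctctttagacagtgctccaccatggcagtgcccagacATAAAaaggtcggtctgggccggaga
Avp: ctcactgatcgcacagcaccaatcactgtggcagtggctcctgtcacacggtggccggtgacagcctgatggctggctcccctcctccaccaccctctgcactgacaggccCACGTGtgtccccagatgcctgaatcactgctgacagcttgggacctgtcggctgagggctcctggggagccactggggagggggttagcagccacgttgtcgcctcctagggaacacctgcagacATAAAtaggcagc
The Oxt window held 5 half-sites and no E-box, and the Avp window held 1 E-box and no half-site. Of 32851 mouse windows of this length, 35.2% held TGACC, 6.02% held CACGTG and 37.3% held ATAAA. All 4 genes had a window: that of Oxtr held 1 TGACC and 1 CACGTG, and that of Avpr1a held only ATAAA. The matches describe the letters alone.

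The dissections separated the 4 nuclei from each other by their defining genes. Mean levels of 15 of the 16 markers measured were highest in their own nucleus in fed mice, the exception being Prlh of the DMH list, and the 4 PVN markers summed to 127 to 288 RPKM (reads scaled to exon length and to library size) in PVN libraries against at most 83.3 RPKM in DMH, 22.9 in VMH and 14.7 in ARC libraries. The 2 markers of the lateral hypothalamus summed to 269 to 1448 RPKM in fed and 401 to 631 RPKM in fasted DMH libraries. Elsewhere they reached at most 35.2 RPKM. Their part in the DMH values was not tested. Depth, estimated from the values, ran from 1.32 to 13.2 M reads, with 1 fasted VMH library the shallowest. In the DMH the fasted libraries were the deeper, with 4.78 to 13.2 M reads against 2.93 to 5.03 M in fed mice (exact permutation test, two-sided, p = 0.0476).

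Oxt was highest in the PVN. In the 6 fed PVN libraries it ranged from 2744 to 5076 RPKM with a median of 4175. In the 5 fasted ones it was 3342, 4110, 4940, 4020 and 5280 RPKM. All 11 PVN libraries lay more than an order of magnitude above every library of the other nuclei. The ARC came next and was uneven, with 123, 42.6, 57.1, 22.8 and 11.3 RPKM in fed and 8.57, 62.1, 12.2, 30.1 and 77.4 RPKM in fasted mice. DMH values were 16.2, 27.7, 17.8, 33.2 and 9.32 RPKM in fed and 16.6, 11.6, 15.3 and 23.8 RPKM in fasted mice. The VMH was lowest, at 8.49 to 16.5 RPKM with a median of 10.8 in 6 fed libraries and 4.83 to 14.0 RPKM with a median of 9.90 in 6 fasted ones. A library with no Oxt read would be listed near 2.04 RPKM, because a small count had been added to every gene. Even the lowest VMH library was above that value, by an estimated 3.08 reads. No-read values here and below are means over batches and differ between batches, so read estimates for single libraries are rough.

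**Figure D1:**
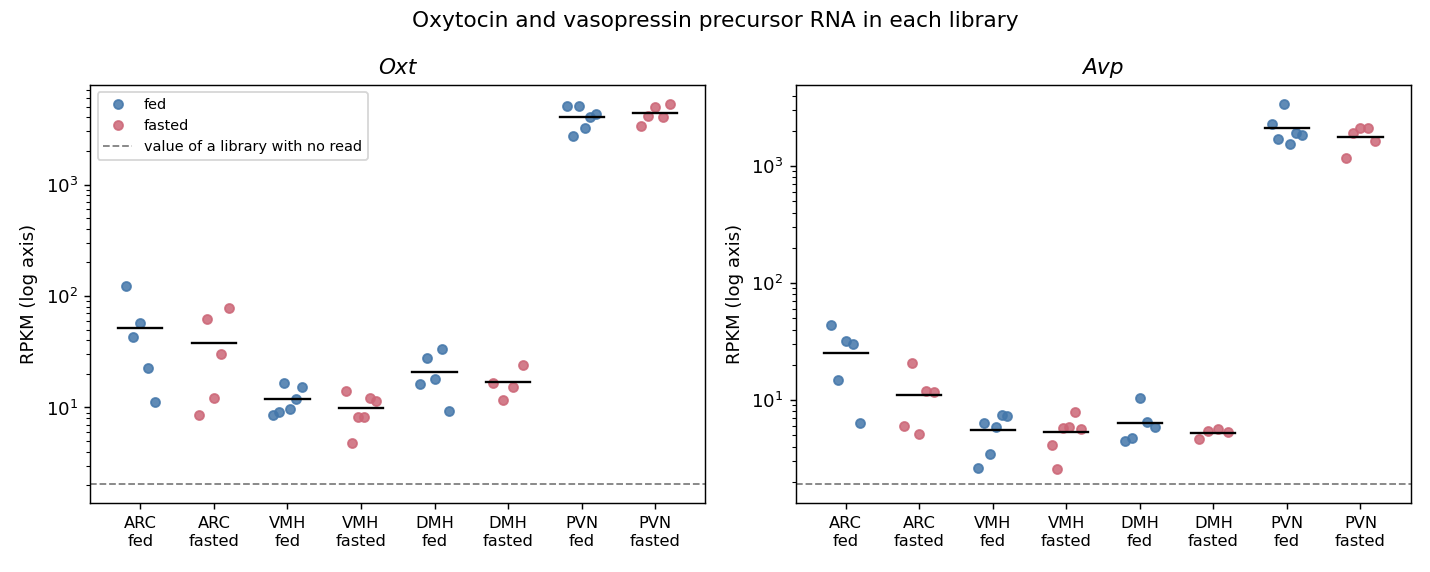
RPKM of Oxt and Avp on log axes in each of 42 libraries, by nucleus and nutritional state, with black lines at the group means and a dashed line at the value expected with no read. Every PVN library sits far above every library of the ARC, VMH and DMH, where Oxt reached at most 123 RPKM and Avp at most 43.6 RPKM.

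Avp was also highest in the PVN and next in the ARC. Fed PVN libraries ranged from 1536 to 3400 RPKM with a median of 1884. The fasted ones had 1166, 1906, 2108, 2100 and 1642 RPKM. Fed ARC libraries had 43.6, 14.7, 31.7, 30.3 and 6.36 RPKM and fasted ones 6.05, 20.9, 5.17, 11.9 and 11.7 RPKM. The DMH and VMH were close to each other. DMH values were 4.50, 4.71, 10.5, 6.44 and 5.90 RPKM in fed and 4.62, 5.44, 5.65 and 5.35 RPKM in fasted mice. VMH values ran from 2.60 to 7.46 RPKM with a median of 6.10 in fed and from 2.57 to 7.87 RPKM with a median of 5.71 in fasted mice. With an expected no-read value of 1.90 RPKM, the VMH libraries held an estimated 0.80 to 14.4 Avp reads each, so Avp was barely resolved there.

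In fed mice Oxt and Avp RNA was higher in the PVN than the mean of the other 3 nuclei by 7.54 (SE 0.35) and 7.68 (SE 0.27) on the log2(RPKM + 1) scale (limma, adjusted p = 8.95e-18 and 2.55e-21). Of all genes, 5.76% were called in this contrast. In fasted mice the differences were 7.96 (SE 0.38) and 7.87 (SE 0.29), with adjusted p = 2.25e-17 and 1.53e-20 and 5.39% of genes called. The contrast was positive within each of the 3 batches of libraries, at 7.08 to 8.15 for Oxt and 7.51 to 8.0 for Avp, wherever a batch held all 4 nuclei of one state. Over the 4 fed nuclei all 4 genes passed the F test, with Oxt and Avp at adjusted p = 7.30e-17 and 2.43e-20, Oxtr at 9.61e-07 and Avpr1a at 0.0590, against 12.4% of all genes. Endothelial markers also moved with the PVN, where the 5 genes summed to 60.3 to 94.5 RPKM against 21.8 to 66.1 RPKM elsewhere. Their part in the Oxt and Avp values was not tested. These log2 differences understate the ratios, since the added count lifts the low values.

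The nuclei with low levels differed less firmly. In fed mice Oxt was lower in the VMH than in the ARC by 1.65 (SE 0.45, adjusted p = 0.0160; 7.9% of genes called), a call that was lost without fed ARC library 1, which had the highest value (1.24 lower, adjusted p = 0.109). In fasted mice the difference was 1.47 (SE 0.45, adjusted p = 0.0357; 8.91% called), lost without fasted ARC library 2 (adjusted p = 0.141) or 5 (adjusted p = 0.163). The DMH stood between them and differed from neither in fed mice (adjusted p = 0.406 against the ARC and 0.558 against the VMH). Avp in fed mice was lower than in the ARC by 1.83 (SE 0.34) for the VMH and by 1.63 (SE 0.36) for the DMH (adjusted p = 0.000265 and 0.00616, with 7.9% and 2.79% of genes called). In fasted mice neither difference was called (-0.84 and -0.80, limma adjusted p = 0.166 and 0.395). The VMH and DMH were not distinguished in fed mice (difference 0.20, 95% interval -0.49 to 0.89).

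The low levels were set beside PVN markers in the same libraries. Relative to the PVN mean in fed mice, the ARC held 1.26% of Oxt, 1.20% of Avp, 1.37% of Sim1 and 4.93% of Crh. Sim1 is the transcription factor that defines the PVN and Crh the stress-axis releasing hormone. The added count lifts all such shares. Mean Crh in the fed ARC was 0.977 RPKM against 0.829 RPKM with no read, so its share was mostly added count. Mean Sim1 was 0.261 RPKM in the fed ARC and 0.252 RPKM in the fed VMH, against 0.127 RPKM with no read. The DMH held 0.513% of Oxt and 0.303% of Avp with 8.27% of Sim1, 12% of Crh and 38.3% of Trh, which releases thyrotropin. In the VMH the shares were 0.290% of Oxt, 0.261% of Avp and 1.32% of Sim1. Of these 3 nuclei the DMH had the most Sim1 and the ARC the most Oxt and Avp. Avp is also made in the suprachiasmatic nucleus, for which 5 markers were summed: 9.97 to 16.1 RPKM in ARC libraries, 2.89 to 5.22 in VMH, 5.21 to 13.0 in DMH and 3.58 to 10.5 in PVN libraries. Of these, Vip was at 0.699 to 1.22 RPKM in ARC libraries and never above that elsewhere, close to its lowest value. Six6, which the ARC also expresses, was at 6.47 RPKM in the fed ARC. The part of PVN, suprachiasmatic or other neighbouring tissue in these low values was not tested.

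Oxt exceeded Avp per length in 41 of 42 libraries. In the PVN the ratio of Oxt to Avp RPKM ran from 1.49 to 2.35 with a median of 2.08 in fed mice and was 2.87, 2.16, 2.34, 1.91 and 3.22 in fasted mice. The geometric means were 1.95 and 2.46, a log2 difference of 0.34 that did not pass the exact permutation test (two-sided p = 0.0996, smallest possible 0.00433). The fasted ratio was above the fed mean in 4 of 5 libraries, and without fasted PVN library 4 the difference was 0.43 (exact p = 0.0476). In the ARC the log2 difference was 0.62 (exact p = 0.286), in the VMH it was -0.27 (exact p = 0.431) and for the DMH -0.01 (exact p = 1). The 4 p-values of this family, adjusted, were 0.398 for the PVN, 0.571 for the ARC, 0.574 for the VMH and 1 for the DMH.

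**Figure D2:**
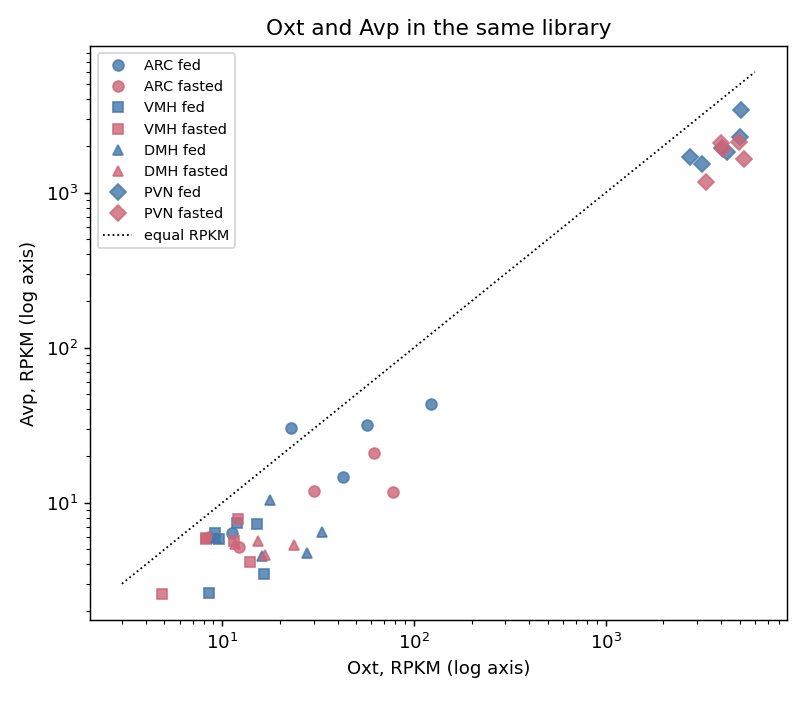
Avp against Oxt, in RPKM on log axes, in each of 42 libraries, with symbols for the nuclei, colours for the nutritional state and a dotted line where both are equal. PVN libraries form a separate cloud with a ratio of 1.49 to 3.22, and ARC libraries overlap those of the VMH and DMH but reach higher.

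Within the PVN the precursor RNAs varied only loosely together. Over the 11 PVN libraries log2 Oxt and log2 Avp had Pearson's r = 0.594 (permutation p = 0.0526) and Spearman's rho = 0.527 (permutation p = 0.10). With each state centred on its mean, r was 0.696 (permutation p = 0.0165) and rho 0.691 (permutation p = 0.0221). Without fed PVN libraries 2 and 4, farthest from the median of Oxt, r was 0.633 (n = 9, permutation p = 0.0681) and rho 0.367 (permutation p = 0.336). For these 3 forms of the relation, adjusted p-values of r were 0.0681, 0.0496 and 0.0681 and of rho 0.150, 0.0664 and 0.336 (all by permutation). No batch held 6 PVN libraries, so r within a batch was not computed. Libraries of a batch share a normalization, and reads from the run of identical sequence could fit either gene.

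Fasting for 24 hours moved neither precursor past the threshold in any nucleus. The share of all genes called at an adjusted p under 0.1 was 0.0566% for the ARC, 0.131% for the VMH, 0.0238% for the DMH and 0.0715% for the PVN. None of the 4 genes was among them, and for all 4 genes in all 4 nuclei the fed and fasted libraries overlapped. Over all genes, 0.742% (ARC), 0.277% (VMH), 1.15% (DMH) and 0.402% (PVN) did not overlap. At an unadjusted p under 0.05, 2 of the 16 tests passed, Avp and Oxtr in the ARC. Of all 33579 genes, 2517 passed at that level for the ARC, 2455 for the VMH, 2175 for the DMH and 1857 for the PVN.

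In the PVN, mean Oxt was 4066 ± 955 RPKM in fed (SD, n = 6) and 4338 ± 774 RPKM in fasted mice (n = 5), a log2 difference of 0.11 (95% interval -0.80 to 1.02, limma adjusted p = 1). Mean Avp was 2113 ± 678 RPKM in fed and 1784 ± 395 RPKM in fasted mice, a log2 difference of -0.22 (95% interval -0.92 to 0.47, adjusted p = 1). Within batches the differences were -0.15, 0.16 and 0.14 for Oxt and -0.75, -0.19 and -0.02 for Avp. The DMH markers summed to 19.3 to 41.5 RPKM in fed and 44.5 to 77.6 RPKM in fasted PVN libraries. Their part in the PVN differences with fasting, of these or other genes, was not tested. With only the PVN libraries in the fit, the standard errors fell from 0.45 to 0.22 for Oxt and from 0.34 to 0.23 for Avp, and neither gene was called (adjusted p = 1 for both).

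In the ARC, Avp was 25.3 ± 14.7 RPKM in fed and 11.1 ± 6.26 RPKM in fasted mice (n = 5 each), a log2 difference of -1.02 (SE 0.36, 95% interval -1.74 to -0.29). With only the ARC libraries in the fit, the standard error rose to 0.56 (limma, unadjusted p = 0.103). All 5 fasted libraries lay below the fed mean, but fed library 5, at 6.36 RPKM, lay among them. The difference failed the correction over all genes (limma, unadjusted p = 0.00724, adjusted p = 0.545) and the exact permutation test did not pass either (two-sided p = 0.111, smallest possible 0.00794). Within the batches it was -2.66, -0.96 and -0.25, the first from 1 library of each state and the others from 2. Oxt in the same libraries differed by -0.45 (95% interval -1.39 to 0.50, adjusted p = 1), with within-batch values of -3.70, -0.80 and 1.53, and by 0.11 when libraries were weighted by their quality. Of the PVN markers in these libraries, mean Sim1 was 0.261 RPKM in fed and 0.301 RPKM in fasted ARC, and mean Trh 10.1 and 7.44 RPKM. Their part in the Avp values was not tested.

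In the VMH and DMH the precursor differences were small beside their intervals. For Oxt they were -0.27 (95% interval -1.13 to 0.60) and -0.22 (-1.22 to 0.79). For Avp they were -0.03 (-0.69 to 0.63) and -0.19 (-0.96 to 0.58). Within batches the differences in these nuclei ran from -0.64 to 0.10 for Oxt and from -0.43 to 0.31 for Avp. The sign for Avp in the VMH was not stable, at 0.10 with libraries weighted by their quality.

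**Figure D3:**
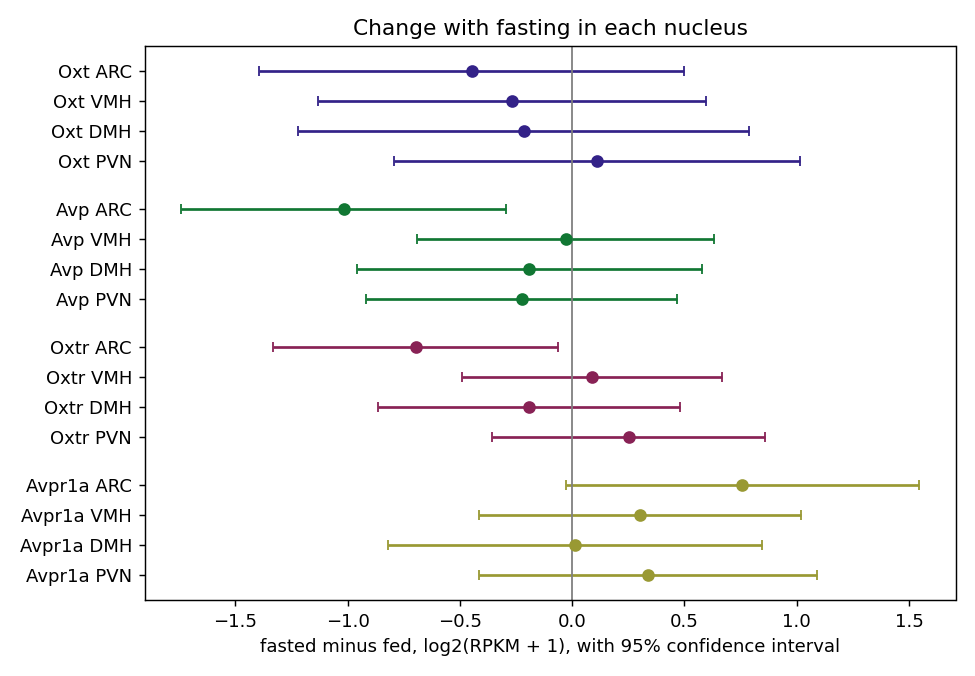
Fasted minus fed difference of log2(RPKM + 1) for each gene and nucleus, with 95% confidence intervals from the fit over all 42 libraries. The intervals of Avp and Oxtr in the ARC lie below 0 before correction over all genes, and the other 14 span it. With only the ARC libraries fitted, the unadjusted p of these genes was 0.103 and 0.0877 (limma).

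Oxtr, the oxytocin receptor, had its lowest mean level in the fed PVN. It was highest in the VMH, at 4.23 to 11.5 RPKM with a median of 7.56 in fed and 5.09 to 17.2 RPKM with a median of 6.96 in fasted mice. The ARC had 4.88, 3.98, 5.75, 6.0 and 1.81 RPKM in fed and 0.582, 2.59, 4.20, 2.10 and 2.79 RPKM in fasted mice. DMH values were 0.437, 1.80, 2.14, 0.561 and 2.79 RPKM in fed and 1.24, 0.364, 1.94 and 1.07 RPKM in fasted mice. In the PVN, Oxtr ran from 0.349 to 1.43 RPKM with a median of 0.790 in fed mice and was 1.27, 1.48, 1.59, 0.908 and 0.672 RPKM in fasted mice. Every VMH library was above every PVN and DMH library, and the PVN and DMH overlapped. The expected no-read value was 0.229 RPKM, and fed PVN libraries held an estimated 2.51 to 35.1 Oxtr reads.

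**Figure D4:**
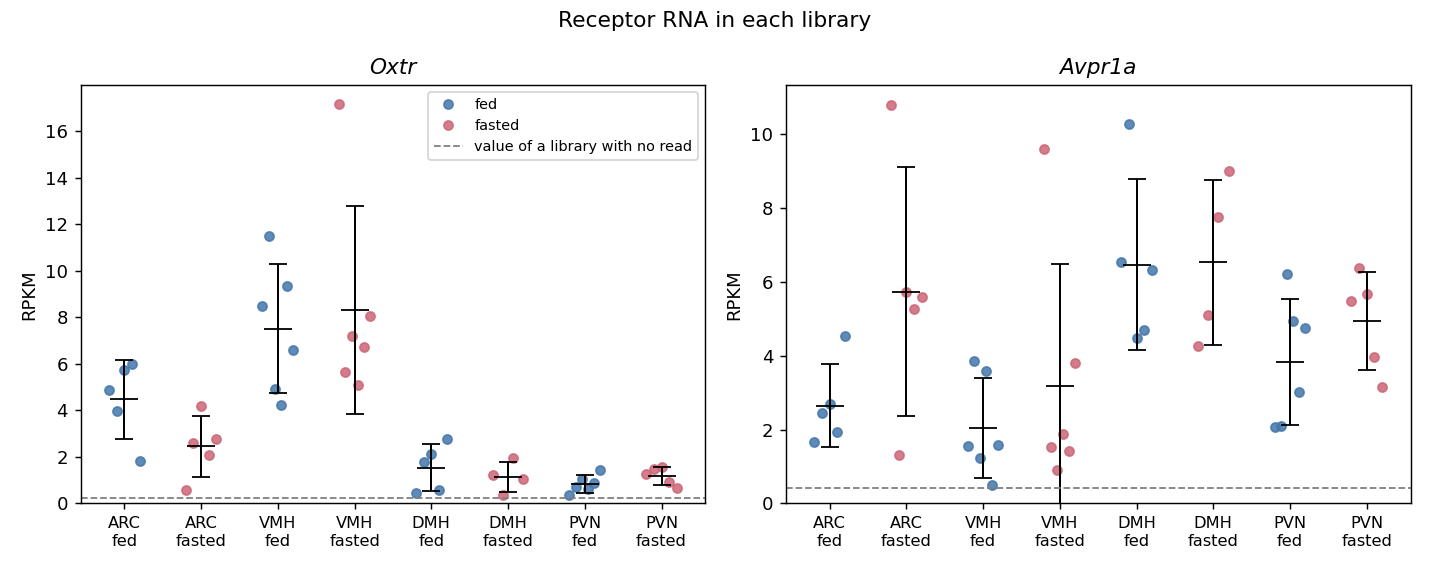
RPKM of Oxtr and Avpr1a in each of 42 libraries by nucleus and nutritional state, with bars for the mean and SD of each group and a dashed line at the value expected with no read. Oxtr is highest in the VMH, and Avpr1a varies less between nuclei, with fasted VMH library 1 far above the rest of its group for both.

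In order, fed Oxtr RNA stood as VMH, ARC, DMH and PVN. The neighbours VMH and ARC were not distinguished in fed mice (difference 0.64, 95% interval 0.03 to 1.25, adjusted p = 0.274), whereas in fasted mice the VMH was higher by 1.43 (SE 0.30, adjusted p = 0.00117). Those values do not show that the gap depended on state, as the interaction of nucleus and state was not called (adjusted p = 1; 0.00596% of genes called). The DMH was lower than the ARC by 1.14 (SE 0.31, adjusted p = 0.0461; 2.79% of genes called), a call lost without any of 5 libraries, namely fed ARC libraries 1, 3 and 4 and fed DMH libraries 1 and 4 (adjusted p = 0.108 to 0.161). The DMH and PVN were not distinguished (difference -0.39, 95% interval -1.0 to 0.22; 3.42% of genes called). Against the VMH, fed Oxtr was lower by 1.78 (SE 0.30) for the DMH and by 2.17 (SE 0.29) for the PVN (adjusted p = 0.000104 and 7.19e-07; 5.24% and 9.84% of genes called), and fasted Oxtr by 2.06 (SE 0.32) and 2.01 (SE 0.30; 3.94% and 9.24% of genes called). The fed PVN was also lower than the ARC, by 1.53 (SE 0.30, adjusted p = 0.000951, with 4.13% of genes called). In fasted mice that difference was not called (-0.58, limma adjusted p = 0.469).

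Against the mean of the other 3 nuclei, PVN Oxtr was lower by 1.36 (SE 0.24, adjusted p = 0.000141) in fed and by 0.84 (SE 0.26, adjusted p = 0.0542) in fasted mice. Within batches the contrast was -1.57 to -0.57. The call in fasted mice was lost without fasted PVN library 1 (0.86 lower, adjusted p = 0.104), 4 (0.80 lower, adjusted p = 0.135) or 5 (0.75 lower, adjusted p = 0.168), and with a pseudocount of 0.1 (1.1 lower, adjusted p = 0.126). Oligodendrocyte markers moved with the VMH, where the 5 genes summed to 166 to 294 RPKM against 56.8 to 177 RPKM in the other nuclei, and neuronal markers did too, at 1075 to 1515 against 663 to 1022 RPKM. Their part in the Oxtr difference was not tested.

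Fasted ARC libraries had less Oxtr on average, 2.45 ± 1.3 against 4.48 ± 1.69 RPKM in fed mice (SD, n = 5 each). All 5 fasted libraries lay below the fed mean, and fed library 5 lay within the fasted range. The log2 difference of -0.70 (SE 0.31) had an unadjusted p of 0.0323 and an adjusted p of 0.647 by limma, and an exact permutation p of 0.103. With only the ARC libraries in the fit, the standard error was 0.36 (limma, unadjusted p = 0.0877). The difference was -1.89, -0.42 and -0.37 within the batches. In the VMH the difference was 0.09 (95% interval -0.49 to 0.67) and -0.12 without fasted VMH library 1. In the DMH it was -0.19 (95% interval -0.86 to 0.48), and in the PVN 0.25 (95% interval -0.36 to 0.86). Within batches these ran from -0.76 to 0.58.

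Avpr1a, the vasopressin receptor of the brain and blood vessels, was spread more evenly. DMH libraries had 6.55, 10.3, 4.49, 4.71 and 6.32 RPKM in fed and 4.26, 5.09, 7.76 and 9.0 RPKM in fasted mice. PVN values ran from 2.06 to 6.2 RPKM with a median of 3.88 in fed and were 5.47, 6.38, 5.67, 3.97 and 3.15 RPKM in fasted mice. The ARC had 1.66, 2.44, 2.70, 1.92 and 4.52 RPKM in fed and 10.8, 1.31, 5.73, 5.27 and 5.60 RPKM in fasted mice. VMH libraries ranged from 0.492 to 3.85 RPKM with a median of 1.57 in fed and from 0.903 to 9.60 RPKM with a median of 1.70 in fasted mice. In fed mice the lowest DMH library was above the highest VMH library, and in fasted mice these nuclei overlapped.

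That pair was the only one of 6 called in fed mice, with Avpr1a higher in the DMH by 1.36 (SE 0.37, adjusted p = 0.0254; 5.24% of genes called). The F test over the fed nuclei (adjusted p = 0.0590) was lost without any of 5 libraries, fed DMH libraries 1, 2 and 5 and fed VMH libraries 3 and 5 (adjusted p = 0.105 to 0.169). In fasted mice the DMH was higher than the VMH by 1.07 (SE 0.39, adjusted p = 0.186), and by 1.40 (adjusted p = 0.0226) without fasted VMH library 1. The PVN did not differ detectably from the mean of the other nuclei in fed (0.15, 95% interval -0.45 to 0.74) or fasted mice (0.13, -0.52 to 0.77).

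With fasting, ARC Avpr1a was 2.65 ± 1.13 RPKM in fed and 5.74 ± 3.37 RPKM in fasted mice, and 4 of 5 fasted libraries exceeded the fed mean. The log2 difference of 0.76 (95% interval -0.03 to 1.54) did not pass (limma unadjusted p = 0.0579, adjusted p = 0.687, exact permutation p = 0.127), and it was 2.15, 0.14 and 0.68 within the batches. For the VMH the difference was 0.30 (95% interval -0.41 to 1.02), for the DMH 0.01 (-0.82 to 0.85) and for the PVN 0.34 (-0.41 to 1.09). Within batches these ran from -0.48 to 1.07. None of the 4 genes had a called interaction of nucleus and state (adjusted p = 1 for each).

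The other receptors were near the level of no reads. Avpr1b (chr1:131599239-131612000) had group means of 0.303 to 0.871 RPKM. In the VMH it was 0.303 ± 0.0982 RPKM in fed and 0.871 ± 0.817 RPKM in fasted mice (n = 6 each), above the fed mean in 6 of 6 fasted libraries but not called (log2 difference 0.44, limma adjusted p = 0.617, exact permutation p = 0.00433). Avpr2 (chrX:73892102-73895502) had group means of 0.382 to 0.985 RPKM, did not pass the filter, and shares 81.3% of its exon length with another gene, so its reads are uncertain.

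Genes that resembled each member were sought over the 42 libraries by the correlation of log2(RPKM + 1), as a description, since libraries of a nucleus share their tissue. For Oxt the closest was Avp (r = 0.986), then Tns1 (0.951), Dnah8 (0.937), Arfgef3 (0.935) and Ctsd (0.935), and for Avp, Oxt was followed by Tns1 (0.951), Arfgef3 (0.935), Dnah8 (0.935) and Trp53i11 (0.932). Reads of Ctsd are uncertain, since 32.4% of its stretches recur elsewhere. Closest to Oxtr were Lamb3 (0.872), the somatostatin receptor Sstr3 (0.845), Mtpn (0.832) and Nceh1 (0.830). Avpr1a had looser companions, with Ogt (0.734), Ism1 (0.668), Las1l (0.631), Ranbp17 (0.625) and Nrip3 (0.621). Over the 11 PVN libraries centred on each state, the closest to Oxt were Dcaf12 (0.968), Gm13571 (0.949), Tmbim4 (0.940), 5430416N02Rik (0.916) and Padi2 (0.915), and to Avp Klf10 (0.915), G6pdx (0.909), Nufip2 (0.900), Gm25395 (0.897) and Cep135 (0.896). With 11 points and 33579 genes, values of this size were the largest of very many.

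Transcription factors of these neurons were mostly higher in the PVN, and other lists of genes that serve them were more mixed. Of 10 transcription factors of oxytocin and vasopressin neurons, 9 were higher and none lower in the fed PVN than the mean of the other nuclei, and 8 and none in the fasted PVN, against 3.18% of genes higher and 2.58% lower in fed and 2.9% and 2.49% in fasted mice. The median log2 difference was 1.19 in fed and 1.18 in fasted mice, against 0 over all genes. Sim1 was higher by 3.65 (SE 0.10, adjusted p = 3.76e-24) in fed and 3.28 (SE 0.11) in fasted mice, and Pou3f2, which acts downstream of Sim1, by 2.70 (SE 0.18) and 2.58 (SE 0.20). Otp, needed with Sim1 for these neurons to form, was higher by 2.77 (SE 0.32) in fed and 1.32 (SE 0.34) in fasted mice. Pou3f4 was higher by 1.52 (SE 0.26) in the fed and Nhlh2 by 1.37 (SE 0.24) in the fasted PVN. The gene not called in fed mice was Creb3l1, a factor that activates the Avp promoter, at 4.11 ± 1.97 RPKM in the PVN and 15.1 ± 6.5 RPKM in the ARC. Fasting moved none of the 10 past the threshold in any nucleus. The shares over all genes given here also apply to the PVN counts of the lists that follow.

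Of 11 genes that process the precursors or break down the peptides, 6 were higher and 1 lower in the PVN in both states (median 0.36 in fed and 0.26 in fasted mice). Pcsk1, a convertase that cuts prohormones, was higher by 1.72 (SE 0.16) in fed and 1.62 (SE 0.17) in fasted mice. The granule protein Scg2 was higher by 0.68 (SE 0.06) and 0.61 (SE 0.06). Pcsk2, the second convertase, was higher by 0.56 (SE 0.08) in fed mice, and Cpe, which trims the cut ends, by 0.44 (SE 0.07) in fasted mice. Chga, another granule protein, was lower by 0.84 (SE 0.16) and 0.97 (SE 0.17). No gene of the list was called with fasting in any nucleus.

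Of 13 magnocellular neuron genes that passed the filter on a list of 15, 5 were higher and 1 lower in the fed PVN, and 5 higher and 3 lower in the fasted PVN (medians 0.31 and 0.41). Caprin2, which binds Avp RNA and lengthens its tail, was higher by 2.05 (SE 0.17) in fed and 1.37 (SE 0.19) in fasted mice. Nos1, the neuronal nitric oxide synthase, was higher by 1.13 (SE 0.12) and 1.27 (SE 0.13). Kcnmb4, a subunit of calcium-activated potassium channels, was higher by 1.48 (SE 0.22) and 1.65 (SE 0.23), although 30.7% of its stretches recur in another gene. Vgf, a granule precursor, was higher by 0.65 (SE 0.18) in fed and Rasd1 by 1.45 (SE 0.37) in fasted mice. Pdyn, the dynorphin precursor packed with vasopressin, was the one gene called with fasting in the PVN, where it fell from 60.4 ± 2.78 to 40.7 ± 9.10 RPKM (log2 difference -0.58, SE 0.12, adjusted p = 0.0573). That call was lost without 7 of the 11 PVN libraries in turn and with only the PVN libraries fitted.

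Of the other peptides of the PVN, 4 of 9 were higher and 3 lower in fed mice, and 4 higher and 2 lower in fasted mice (medians 0.17 and 0.42). Crh was higher by 3.18 (SE 0.14) in fed and 3.01 (SE 0.15) in fasted mice and Trh by 2.98 (SE 0.29) and 3.04 (SE 0.31), so both differences were smaller than those of Oxt and Avp on the same scale. Npy, a peptide of ARC neurons, was lower by 1.80 (SE 0.33) and 2.18 (SE 0.36), and Nts, neurotensin, by 1.18 (SE 0.33) and 1.47 (SE 0.36). None was called with fasting in any nucleus by limma, Npy included. The paper, which used edgeR, does report higher arcuate Npy in food-deprived wild-type animals. The missing call here therefore does not show that Npy was unchanged. Why the outcomes differ was not tested.

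The Gq pathway used by Oxtr and Avpr1a was lower in the PVN for 5 of 11 genes and higher for 1 in both states (medians -0.14 and -0.21). The lower genes included the calcium release channel Itpr1 (-1.24, SE 0.08, in fed and -1.25, SE 0.09, in fasted mice), the kinase Camk2a (-0.86, SE 0.11, and -0.88, SE 0.11), the protein kinases C Prkca (-0.82, SE 0.13, in fed mice) and Prkcb (-0.77, SE 0.16, and -0.55, SE 0.17, the latter lost in 6 of 20 fits with 1 library left out). Rgs2, which shortens Gq signalling, rose with fasting in the PVN from 77.9 ± 16.2 to 164 ± 12.7 RPKM (log2 difference 1.09, SE 0.13, adjusted p = 1.12e-05), and its response differed between nuclei (interaction adjusted p = 0.0151). With only the PVN libraries in the fit the fasting call was lost (adjusted p = 0.110). The DMH markers were also higher in fasted than in fed PVN libraries, and their part in the Rgs2 values was not tested. In the fasted PVN Rgs2 was higher than the mean of the other nuclei by 1.17 (SE 0.11). Rgs4 fell in the fasted VMH by 0.57 (SE 0.12, adjusted p = 0.0705), a call lost without 7 of 12 libraries in turn.

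**Figure D5:**
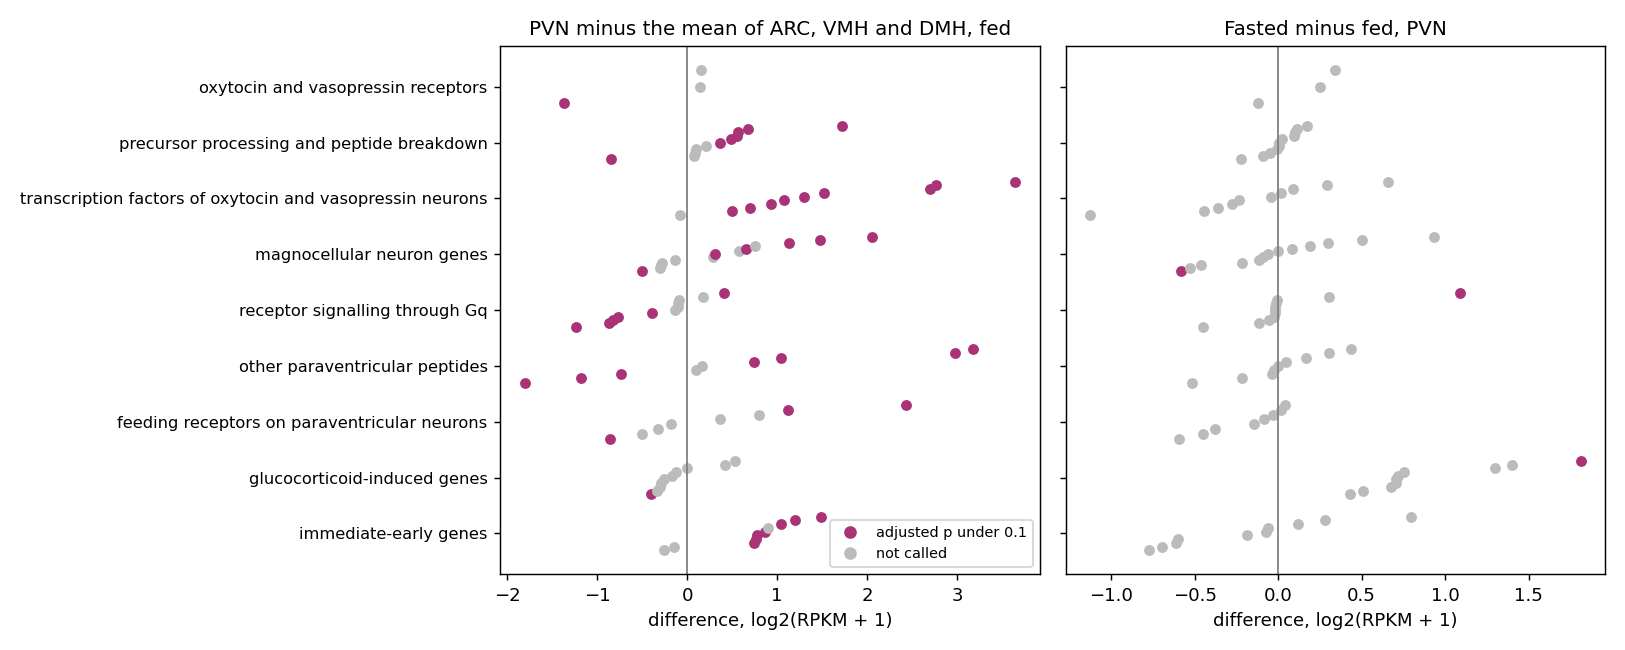
Each point is a gene of the 9 lists named on the vertical axis, placed by its log2(RPKM + 1) difference between the fed PVN and the mean of the other nuclei (left) and between fasted and fed PVN (right), and coloured where limma's adjusted p was under 0.1. Transcription factors lie mostly to the right of 0 on the left panel, and 3 genes (Pdyn, Rgs2 and Cdkn1a) are coloured on the right panel.

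Among 8 receptors through which feeding signals reach PVN neurons, 2 were higher and 1 lower in the fed PVN, and 2 higher and 3 lower in the fasted PVN (medians 0.09 and -0.24). Cckar, the receptor of the satiety hormone cholecystokinin, was higher by 2.43 in both states (SE 0.25 and 0.27), and Glp1r, the GLP-1 receptor, by 1.13 (SE 0.31) and 1.08 (SE 0.34). Lepr, the leptin receptor, was lower by 0.85 (SE 0.13) and 1.5 (SE 0.14), and Npy5r by 0.76 (SE 0.24) in fasted mice. The fasted calls on Npy5r and Glp1r were lost in 5 and 4 of 20 fits with 1 library left out. Of this list Lepr in the ARC was called with fasting (1.22 higher, SE 0.17, adjusted p = 0.000651), and the call was lost with only the ARC libraries in the fit (adjusted p = 0.391).

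Of 10 glucocorticoid-induced genes, 2 rose with fasting in each of ARC, VMH and DMH and 1 in the PVN, and none fell, with medians of 0.49, 0.37, 0.76 and 0.71 against 0 over all genes. Over all genes, 0.0387% (ARC), 0.0715% (VMH), 0.0238% (DMH) and 0.0536% (PVN) were called higher with fasting. The list was chosen with earlier results of these data known, so these counts and medians are a description only. Cdkn1a, a cell-cycle inhibitor, rose by 1.92 (SE 0.39) in the ARC, 1.58 (SE 0.36) in the VMH and 1.81 (SE 0.38) in the PVN (adjusted p = 0.0613, 0.0897 and 0.0573), calls that were lost without 6 of 10, 8 of 12 and 7 of 11 libraries in turn. The metallothionein Mt1 rose by 1.23 (SE 0.18) in the DMH and Mt2 by 1.09 (SE 0.23), 1.1 (SE 0.21) and 1.40 (SE 0.25) in the ARC, VMH and DMH, with 45.8% of Mt2's stretches shared with another gene and the Mt2 call in the ARC lost without 7 of 10 libraries in turn. With only the libraries of the nucleus in the fit, the calls on Cdkn1a were lost in all 3 nuclei and those on Mt1 and Mt2 in the DMH too (adjusted p = 0.207 and 0.415), as was that on Mt2 in the ARC (adjusted p = 0.919). Between nuclei, 1 was lower in the fed PVN and 1 higher and 2 lower in the fasted PVN (medians -0.21 and 0.27), with Mt1 lower by 0.40 (SE 0.13) and 0.74 (SE 0.14), Mt2 lower by 0.75 (SE 0.19) in fasted mice and Zbtb16 higher by 0.97 (SE 0.32) in fasted mice. The Zbtb16 call was lost in 14 of 20 fits with 1 library left out, and the fed Mt1 call in 8 of 22.

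Immediate-early genes, which mark recent neuronal activity, were higher in the fed PVN for 7 of 10 and lower for none (median 0.82), and in the fasted PVN higher for 3 and lower for 1 (median 0.61). In fed mice Egr1 was higher by 1.48 (SE 0.20), Nr4a1 by 1.20 (SE 0.29), Ier2 by 1.04 (SE 0.22) and Fosb by 0.87 (SE 0.24). In fasted mice Nr4a1 was higher by 1.09 (SE 0.31), Arc by 1.08 (SE 0.24) and Fosb by 0.82 (SE 0.26), and Egr2 was lower by 1.09 (SE 0.27). The fasted calls were lost in 8 of 20 fits with 1 library left out for Fosb and in 3 of 20 for Nr4a1. Fasting changed none of the 10 past the threshold in any nucleus, the PVN included, where their median was -0.13 and 3 of 10 had a difference above 0.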

How the data were processed

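RNA was taken from 4 laser-captured hypothalamic nuclei of fed and fasted mice, amplified and sequenced as unstranded single 50-base reads. The authors aligned reads with TopHat2 2.0.11 to GRCm38, after CASAVA 1.7, removed outlying libraries, and used Cufflinks 2.2.1, edgeR and limma. The roles of some of these tools are not given in the sources used here. The deposited values are RPKM for 37907 Ensembl IDs in 42 libraries, of which 35965 matched a symbol. No value was 0, since a count of about 4.99 reads in a library of mean depth had been added. Per the study's methods, brains were captured and their libraries made in 3 batches, with no batch given for a library. The values showed 3 batches (10, 16 and 16 libraries), found from values that recur within libraries, whose mean log2 values had been made equal without regard to group. Batch 1 held no fasted DMH library, and with the 8 groups in the model a batch term of up to 0.248 (Avp) remained.

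Depth was estimated from the steps between low values, of which 97.5% to 98.7% came out whole within 0.05 reads. For each gene 1 no-read value was used in all batches. The lowest listed values of Avpr1b were 0.187, 0.352 and 0.307 RPKM in batches 1, 2 and 3, against 0.272 RPKM as used. Estimated reads of single libraries are therefore rough. Values were tested as log2(RPKM + 1) with limma 3.58.1 in R 4.3.3 on 33579 genes with at least 1 RPKM in at least 4 libraries, with 8 group means, a mean-variance trend, Benjamini-Hochberg adjustment over all genes and a threshold of 0.1. On simulated data for the PVN fasting contrast, 87.4% of 103 genes changed by a log2 of 1 and 99.0% of 97 changed by 2 were recovered. These rates are averages over genes of differing spread with a mean log2 value above 1. Oxt and Avp had standard errors of 0.45 and 0.34 in this contrast, so the rates do not tell how well a change in them would be found. Single values had exact permutation tests, and the correlation 100000 permutations. Tools were Python 3.11.15, numpy 2.4.6, scipy 1.17.1 and pandas 2.3.3. Exons are those of GENCODE M21.

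The nuclei shared mice, but the labels do not tie libraries to mice, so mouse could not be a block, tests between nuclei and of the interaction treat libraries as independent, and p-values measure the spread between these libraries. Members and gene lists were chosen with earlier results of these data known. The text names the 4 genes, Avpr1b and Avpr2, the 5 genes most correlated with each member, and from each list at most 4 called genes per contrast by size. One gene that this rule names is not reported here. Alternatives were a pseudocount of 0.1, no filter, a common median, array weights, the replicate number as a block, only the nucleus tested, and each library left out. No pseudocount, and batch as a term, were added after seeing the data. Batch as a term was fitted without a pseudocount, so its effect shows only beside the fit without one.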

Additional observations from a re-analysis of the deposited data

Results flagged for a closer look

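Fasted VMH library 1 stood apart from the other 5 of its group in 3 measures. Its Oxtr level was 17.2 RPKM against 5.09 to 8.05 RPKM in the others, with a gap of 0.755 of the group's range. Its Avpr1a level was 9.60 RPKM against 0.903 to 3.81 RPKM, with a gap of 0.665. Its ratio of Oxt to Avp was 3.39 against 1.40 to 2.05, with a gap of 0.672. It was the shallowest library, at an estimated 1.32 M reads, and belonged to batch 1. Of 40 groups of values examined, 3 held such a value, and chance gives about 1 in 20, or 2. Without it the fasting difference in the VMH was -0.12 for Oxtr and -0.020 for Avpr1a, and in fasted mice Avpr1a was lower in the VMH than in the ARC by 1.11 (limma adjusted p = 0.0414), the DMH higher than the VMH by 1.40 (adjusted p = 0.0226) and the PVN higher than the VMH by 1.07 (adjusted p = 0.0511).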

How the results depend on the processing

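For the 4 genes, 1052 of 1096 values with 1 library left out and 576 of 592 under other alternatives kept their direction and side of the threshold. With array weights the difference was 0.11 for Oxt with fasting in the ARC, 0.10 for Avp with fasting in the VMH, -0.12 for Avp in fasted DMH minus VMH, -0.065 for Oxtr in fasted PVN minus DMH, -0.020 for Avpr1a with fasting in the DMH and 0.021 for Avpr1a in fasted PVN minus ARC, all with another sign, and Avpr1a was called in fed PVN minus VMH (0.92) and fasted DMH minus VMH (1.23). Oxtr in the fasted PVN minus the others lost its call at -1.10 (pseudocount 0.1), -1.14 (none) and -1.13 (batch as a term, also with no pseudocount). The last 2 fits differ only in the batch term, so this loss is not one that the batch term added. Avpr1a in fasted PVN minus ARC turned to 0.0024 (pseudocount 0.1), 0.011 (none) and 0.011 (batch), and Avp in fasted DMH minus VMH to -0.062 (batch). Replicate numbers did not pair the libraries (r of -0.147 to 0.097). With the number as a fixed block, Avpr1a with fasting in the DMH was -0.028 and 17 genes were called in the VMH. That fit covered only the fasting contrasts, in which none of the 4 genes was called with or without it. Calls between nuclei were not fitted with the fixed block. Genes called with fasting numbered 8, 8, 8, 40 and 0 in the ARC (19 as reported) with a pseudocount of 0.1, none, batch, array weights and only the ARC libraries. They numbered 16, 22 and 1 in the VMH (44 as reported) with array weights, batch and only its libraries. With array weights and with only that nucleus they numbered 56 and 0 in the DMH (8 as reported) and 141 and 3 in the PVN (24 as reported). The interaction called 1, 1 and 8 genes (2 as reported) with a pseudocount of 0.1, none and array weights. Leaving out 1 library gave ranges of -2.07 to -1.24 (Oxt, fed VMH minus ARC), -1.87 to -1.11 (Oxt, fasted VMH minus ARC), -0.19 to 0.12 (Avp, fasting VMH), -1.05 to -0.59 (Avp, fasted VMH minus ARC), -0.11 to 0.15 (Avp, fasted DMH minus VMH), -0.12 to 0.21 and -0.37 to 0.011 (Oxtr, fasting VMH and DMH), -0.93 to -0.75 (Oxtr, fasted PVN minus others), -1.36 to -0.96 (Oxtr, fed DMH minus ARC) and -0.15 to 0.22 (Oxtr, fasted PVN minus DMH). For Avpr1a they were -0.020 to 0.48 and -0.14 to 0.17 (fasting VMH and DMH), and in fasted mice -1.13 to -0.54 (VMH minus ARC), -0.056 to 0.53 (DMH minus ARC), -0.38 to 0.20 (PVN minus ARC), 0.90 to 1.40 (DMH minus VMH) and 0.57 to 1.07 (PVN minus VMH), with adjusted p-values of 0.0337 to 0.169 over the fed nuclei (limma F test). The ratio gave -0.25 to 0.22 in the DMH and 0.24 to 0.43 in the PVN, r over the PVN 0.53 to 0.73, and the genes called 6 to 31, 16 to 64, 6 to 89 and 11 to 48 in the ARC, VMH, DMH and PVN and 2 to 7 for the interaction. Calls between nuclei on Fosb, Glp1r, Mt1, Npy5r, Nr4a1, Nts, Prkcb, Vgf and Zbtb16 were lost under at least one alternative. The cause of these shifts was not tested.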
